A study of Mus musculus with 6 samples.

Results

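Dense clusters of shared accessible regions are short stretches of the genome in which at least 3 open sites, each called in all 6 ATAC-seq libraries, follow each other closely. Their members were chosen by call and position. Peaks of the 6 lists on chromosomes 1 to 19 were merged where they touched or overlapped, regions called in all 6 libraries were kept, neighbours with gaps of 12500 bp or less were stitched, and regions in stitched units of 3 or more were members. This gave 269 members in 78 clusters, which is 2.36% of the 11379 shared regions and 0.393% of the 68364 merged regions. Of the other shared regions, 1322 formed 661 pairs and 9788 had no shared neighbour within the stitching distance. Since calls in all 6 libraries and distance chose the members, their presence everywhere and their closeness are no findings.

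The libraries came from dissected dentate gyrus of 8-week-old mice that carried an adeno-associated virus (AAV) driving either EYFP, a fluorescent protein that served as the control, or cFos, with 3 animals and libraries per group. The labels do not settle whether the cFos animals received EYFP as well. The strain label reads C57BL/6 in EYFP replicate 1 and counts up by 1 per sample to C57BL/11 in cFos replicate 3, so strain was not used. The sources used here do not state the virus's promoter, the cell types it entered or the share of cells infected. With 3 animals a group, p-values measure the spread between these animals. The series asks how neuronal activation changes chromatin accessibility in the dentate gyrus.

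In ATAC-seq the transposase Tn5 cuts and tags DNA that is not wrapped tightly in nucleosomes, so peaks mark promoters, enhancers and other sites held open by bound proteins. Enhancers and promoters of strongly used loci often lie close together, and stitching neighbours over a fixed distance is a common way of finding such stretches. cFos is a subunit of AP-1, a transcription factor made soon after a neuron fires, which binds enhancers and takes part in opening chromatin. Dentate granule cells, the main neurons of the tissue, express it sparsely at rest.

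Each deposited list gave a score per peak, the authors' own value, which was not normalized between libraries. Lists held 24040 to 44321 peaks. Read depth is unknown because the lists carry no counts. For comparisons between groups, each shared region was therefore ranked by its highest peak score among the same 11379 shared regions within each library, from 0 (lowest) to 100 (highest). The libraries correlated with each other at r between 0.730 and 0.841 over the normal scores of these ranks (across regions, which are not independent).

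Most clusters were small. There were 60 clusters of 3 regions, 9 of 4, 7 of 5, 1 of 7 and 1 of 11. Their spans ran from 9125 to 82614 bp, with a median of 19644 bp, and added up to 1.67 Mb, or 0.0693% of the 2413 Mb between the outermost called regions of the 19 chromosomes. Called regions filled a median of 21.2% of a cluster's span, and gaps between neighbours had a median of 6568 bp (191 gaps), against 7331 bp in the 661 pairs. The density ran from 1.08 regions per 10 kb, in a cluster on chromosome 7 from 16858009 to 16885823, to 3.29 per 10 kb in one on chromosome 13 from 21870813 to 21879937 (mm9; both chosen after their values were seen).

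The stitching distance is a fixed limit in a continuous range of gaps. The 3 widest gaps inside it measured 12479, 12493 and 12500 bp, and the 3 narrowest beyond it 12509, 12511 and 12536 bp. Of the former, only the gap of 12479 bp lay in a cluster, between the outermost region and the other regions of the cluster of 11. The narrowest 3 beyond the limit each separated regions that had no other shared neighbour in reach.

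Chromosome 13 held the most members, 46 in 9 clusters, or 17.1% of all members. There, 6.73% of shared regions lay in clusters (95% exact binomial interval 4.97 to 8.88%, counting error only), the highest share of the 19 chromosomes, and the cluster density was also highest at 7.68 per 100 Mb. Chromosome 3 followed with 12 clusters and 38 members (4.54% of its shared regions, 3.23 to 6.18%) and a density of 7.66 per 100 Mb. Chromosome 7 had 7 clusters and 21 members (4.52%, 2.82 to 6.82%), although it had the lowest number of shared regions per Mb, 3.12. Chromosomes 16, 17 and 19 had no cluster among 360, 373 and 251 shared regions. The upper bounds of the exact binomial interval there are 1.02%, 0.984% and 1.46%. All these intervals treat regions as independent, whereas by the rule members come in groups of 3 or more, so they are too narrow.

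**Figure D1:**
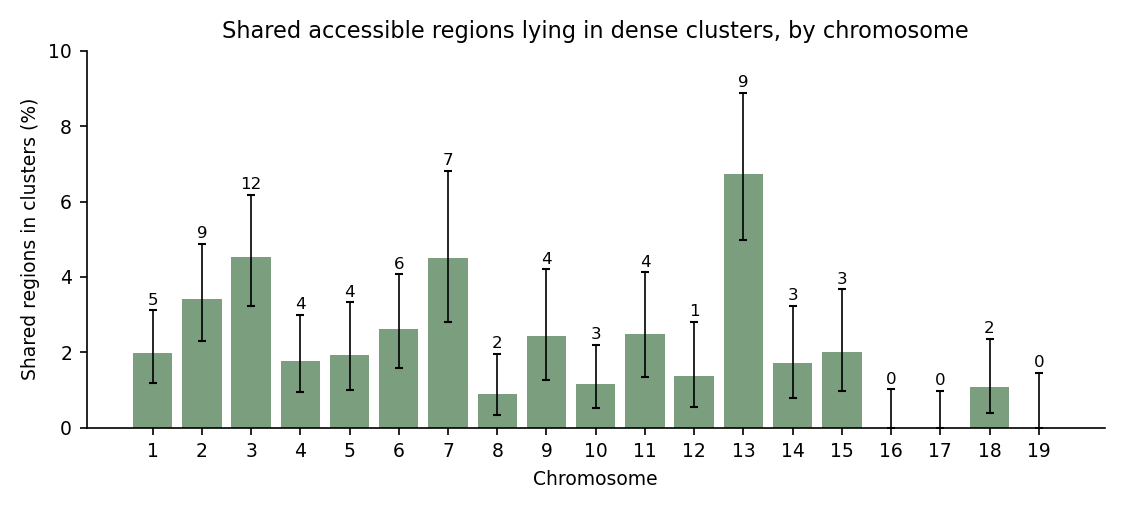
Share of each chromosome's shared regions that lie in clusters (bars, percent), with 95% exact binomial intervals and the number of clusters above each bar. The intervals (lines) cover counting error only and treat regions as independent. Chromosome 13 stands highest at 6.73%, and chromosomes 16, 17 and 19 have none.

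Gene-rich chromosomes did not hold a larger share of their shared regions in clusters. Across the 19 chromosomes, Spearman's rho between that share and the number of protein-coding genes per Mb was 0.0387, and between shared regions per Mb and genes per Mb it was -0.386. Both are descriptions over 19 points. Gene numbers per chromosome came from the GRCm38.p6 gene table, whose coordinates were not used because the peaks are on mm9.

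On chromosome 13, 8 of the 9 clusters lay within 2.60 Mb, from 21252108 to 23854929. This stretch, singled out after its values were seen, makes up 0.108% of the sequence examined and held 41 of the 269 members, or 15.2%. It carried 28.4 shared regions per Mb, against 4.72 per Mb over all 19 chromosomes. The gene table places 53 of the 67 genes named in the H1f, H2ac, H2bc, H3c and H4c series, which encode the linker and core histones, on chromosome 13. It also places 105 of 430 tRNA genes there. Both are families with many gene copies. Whether the stretch holds these genes was not examined, since no mm9 annotation was used here.

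The largest cluster lay in that stretch, on chromosome 13 from 23595596 to 23678209. Its 11 regions were 579 to 2414 bp wide. The mean score percentile of its regions, counted within each library's own list, was 74.7, 76.1 and 73.2 in EYFP replicates 1 to 3 and 71.1, 75.5 and 80.8 in cFos replicates 1 to 3. The groups overlapped, and cFos replicates 1 and 3 marked the lowest and the highest value.

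Regions of this cluster differed widely from each other. The highest by mean percentile, from 23653167 to 23655580, scored 399.62, 515.53 and 408.51 in the EYFP and 424.05, 256.44 and 561.77 in the cFos replicates. The lowest, from 23595596 to 23596174, scored 63.36, 68.67 and 78.95 in the EYFP and 64.81, 61.9 and 66.64 in the cFos replicates, and was the lowest of the 11 in all 6 libraries. Another region, from 23646494 to 23648446, varied between animals of both groups. It scored 77.26, 248.95 and 145.79 in the EYFP and 72.91, 228.42 and 111.62 in the cFos replicates.

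**Figure D2:**
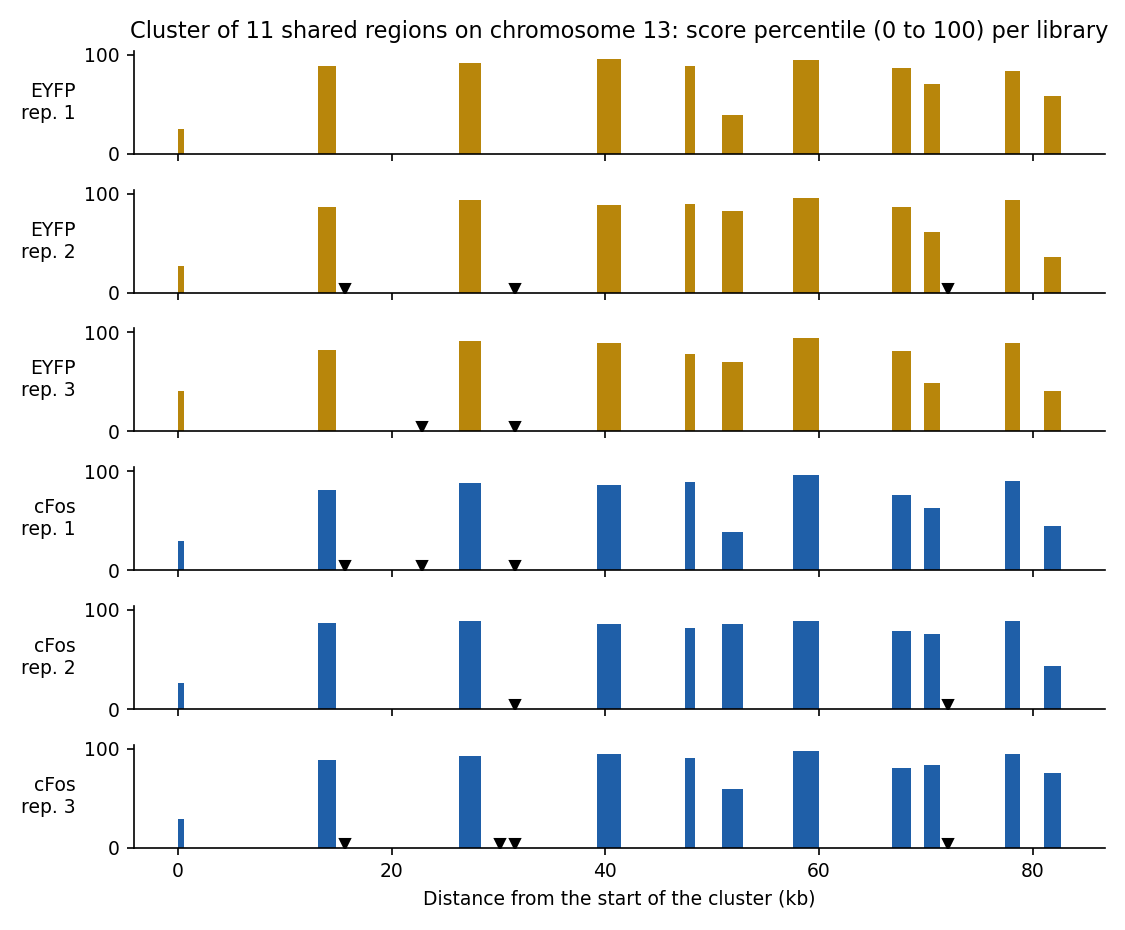
Score percentile (0 to 100, within each library's list) of the 11 shared regions of the largest cluster, drawn as bars as wide as the merged region against the distance from the cluster's start in kb, 1 panel per library. Black triangles mark the regions in the cluster's gaps that a library called but not all 6 did, 5 in all. The lowest region opens the cluster in every library, and the region at about 51 kb is low in EYFP replicate 1 and cFos replicate 1.

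The second largest cluster, on chromosome 12 from 55796136 to 55840260, held 7 regions and no other called region. It was stronger than the cluster of 11, with mean percentiles of 85.5, 86.9 and 80.5 in the EYFP and 82.8, 80.3 and 92.3 in the cFos replicates. The groups overlapped. Its first region, from 55796136 to 55798652, stood at a mean percentile of 98.6 over the 6 libraries, and its sixth, from 55834962 to 55836299, at 59.7.

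Of the 7 clusters of 5 regions, 5 lay on chromosome 13. Those starting at 21252108, 22120392 and 23830090 were the densest of all clusters with 5 or more regions, at 2.34, 2.16 and 2.01 regions per 10 kb. Next came the one starting at 23515126 with 1.63 and the chromosome 12 cluster with 1.59. The fifth on chromosome 13, from 83854117 to 83886577, lay far from the others. The remaining clusters of 5 ran from 173192226 to 173225292 (chromosome 1) and from 95659392 to 95698301 (chromosome 3). A cluster of 4 on chromosome 2 from 109724098 to 109758659 completed the 10 largest, as the longest of the 9 with 4 regions, and, at 34562 bp, was the fourth longest.

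Member regions were wider than other shared regions in every library. The summed width of a library's peaks in a member had a median of 969, 1131 and 962 bp in EYFP replicates 1 to 3, against 820, 988 and 851 bp in the other shared regions. In cFos replicates 1 to 3 it was 790, 739 and 859 bp, against 658, 627 and 721 bp. Members thus exceeded the others by 131 ± 16.0 bp (SD, n = 6 libraries), in 6 of 6 libraries. The two-sided exact sign-flip test over libraries gave p = 0.0312, the smallest it can give with 6, and 0.0625 after Benjamini-Hochberg adjustment over 2 such tests. The test is over animals at the same sites. Wider regions also leave shorter gaps between their edges, which the rule measured. The excess was 75.5 bp without chromosome 13, 73.3 bp when stitched at 25000 bp and 487 bp at 5000 bp, each with the same exact p. Without cFos replicate 2 it was 86.0 bp, with an exact p of 0.0625.

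Members were narrower in cFos than in EYFP libraries, as were the other shared regions. The median member width averaged 796 ± 60.2 bp over the cFos and 1021 ± 95.6 bp over the EYFP libraries (SD, 3 libraries a group), and the groups did not overlap. An exact two-sided permutation gave p = 0.1, the smallest possible with 3 against 3, and 0.15 after adjustment over 6 tests between groups. The ratio of members to other shared regions was 1.19 ± 0.0110 for the cFos and 1.15 ± 0.0265 for the EYFP group, a difference within the overlap of the groups (exact permutation p = 0.2, adjusted 0.24).

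With all widths pooled, score percentiles of members lay close to those of other shared regions, although members mostly ranked lower at like width (given below). The member median minus that of the others was -3.14, -1.64 and -0.885 percentile points in EYFP replicates 1 to 3 and -0.339, 2.15 and 0.0648 in cFos replicates 1 to 3. The mean difference was -0.632 ± 1.77 points (SD, n = 6; two-sided exact sign-flip p = 0.4375). The groups did not overlap in this difference, at 0.625 ± 1.33 in cFos and -1.89 ± 1.15 in EYFP libraries (exact permutation p = 0.1, the smallest possible, 0.15 adjusted over 6 tests). The sign of the mean over 6 libraries depended on the setting, from -2.24 without cFos replicate 2 to 3.45 when stitched at 5000 bp, and it was -1.76 without chromosome 13. Members spanned nearly the whole range, from a mean percentile of 23.3 to 99.7, with a median of 78.6 against 77.2 for the others. The highest member lay on chromosome 3 from 145586522 to 145588179, with scores from 790.98 in cFos replicate 2 to 1107.89 in EYFP replicate 2. The lowest, on chromosome 5 from 15004163 to 15005699, scored between 53.64 and 101.61, both in cFos libraries.

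Strong and weak regions lay side by side. Within a cluster, the highest and lowest region differed by a median of 26.7 percentile points, and by up to 65.0. Mean ranks of adjacent regions correlated weakly, with Spearman's rho of 0.156 over 191 neighbours in clusters, 0.155 over 661 in pairs and 0.0740 over 10508 further apart. Neighbours share libraries and regions, so these are descriptions. Strength did not follow cluster size in order. In clusters of 4 the median rank was 53.4, 59.7 and 62.1 in the EYFP and 62.5, 57.1 and 64.6 in the cFos replicates. In clusters of 5 or more it was 52.1, 49.0 and 48.0 in the EYFP and 55.8, 61.6 and 58.2 in the cFos replicates, against 41.8, 39.6 and 44.1 and 45.4, 49.9 and 43.4 for regions in clusters of 3.

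Relative to all shared regions, members ranked higher in the cFos than in the EYFP libraries. Their median rank was 43.7, 45.1 and 47.9 in EYFP replicates 1 to 3 and 49.3, 53.4 and 50.2 in cFos replicates 1 to 3. Every cFos library lay above every EYFP library, by 5.40 on average (51.0 ± 2.17 against 45.6 ± 2.13, SD, n = 3 each). The exact permutation p (two-sided) was 0.1, the smallest possible, and 0.15 after adjustment over 6 tests. Without cFos replicate 2, whose list was the shortest, the difference was 3.12, and among the remaining libraries the exact p was 0.3. Without chromosome 13 it was 4.89. It was 2.67 when stitched at 25000 bp, where the groups overlapped (exact p = 0.2), 9.74 with only peaks above the pooled median score of 93.14 and 13.4 when stitched at 5000 bp.

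Region by region no change was called. The limma test on normal scores of the ranks, adjusted by Benjamini-Hochberg over all 11379 shared regions, called 0 members and 0 shared regions at 0.05 (background 0%), and the smallest adjusted p of a member was 0.323. At an unadjusted p under 0.05 it listed 30 members (11.2%), against a background of 8.54% over all shared regions. The higher mean lay in cFos in 25 of these 30 members and in 531 of the 972 regions so listed among all shared regions. In 32 members (11.9%) all 3 cFos ranks lay above all 3 EYFP ranks, where the background is 7.14%. In 6 members (2.23%) all cFos ranks lay below, where the background is 6.28%. The median difference in normal score was 0.128 over members and -0.00739 over all shared regions.

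By unit size, lone shared regions had a cFos minus EYFP difference in median rank of -0.401, regions in pairs 2.88, and regions in clusters of 3, 4 and 5 or more 4.43, 3.03 and 8.80. The groups overlapped for clusters of 3 and of 4. The distance to the nearest shared region, taken over all 11379, gave a related picture. The 437 regions with a neighbour within 5000 bp had median ranks of 38.1, 33.1 and 35.6 in the EYFP and 44.6, 45.6 and 40.5 in the cFos replicates. The 1154 regions whose nearest neighbour lay between 5000 and 12500 bp ranked from 46.4 to 47.5 in EYFP and from 47.3 to 47.9 in cFos libraries, where the groups overlapped. These classes were set after the data were seen and many regions of the nearest class belong to pairs, so they describe and do not test the members.

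**Figure D3:**
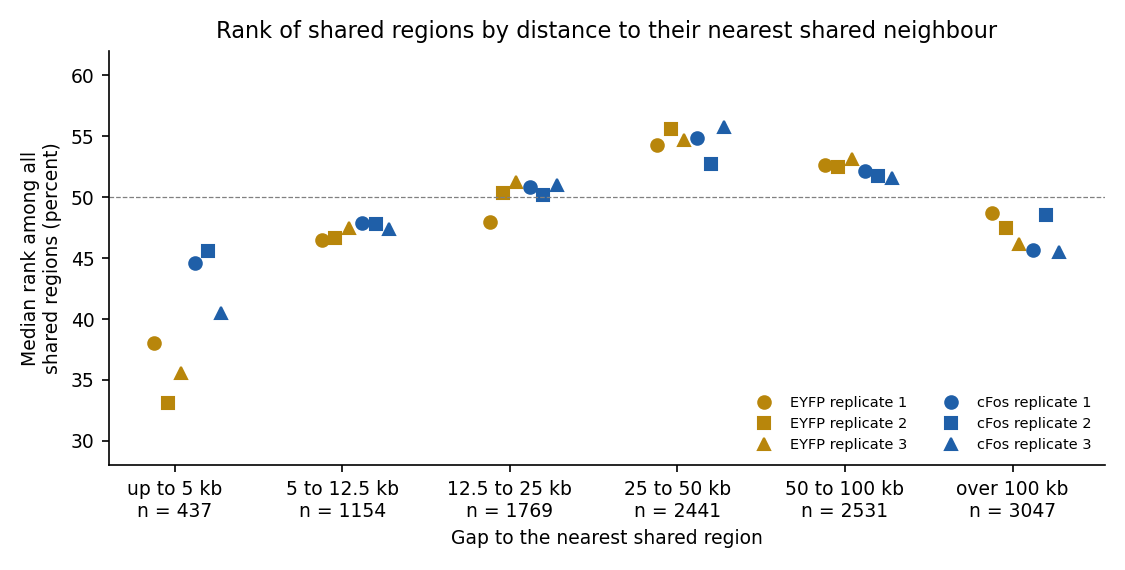
Median rank of shared regions among all shared regions (percent, y axis) in each library, by the gap to their nearest shared region (x axis, with the number of regions). The 3 cFos libraries lie above the 3 EYFP libraries for gaps up to 5 kb, from 40.5 to 45.6 against 33.1 to 38.1, below them for gaps of 50 to 100 kb, from 51.5 to 52.1 against 52.5 to 53.1, and overlap them in the other classes; the dashed line marks 50.

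The difference was also read within classes of width and of strength. Shared regions were divided into 4 classes of like size by merged width. From narrowest to widest, median ranks of members averaged 19.3, 32.9, 56.3 and 64.6 over the EYFP libraries. Those of the other shared regions averaged 23.3, 44.3, 62.3 and 76.5. Over the cFos libraries the averages were 22.9, 39.8, 57.2 and 69.0 for members and 26.2, 44.3, 61.7 and 76.7 for the others. In the classes from narrowest to widest, members differed between cFos and EYFP by 3.597, 6.94, 0.929 and 4.35 in median rank, and the other shared regions by 2.91, -0.0447, -0.676 and 0.205. In 4 such classes by mean rank, from lowest to highest, members differed by 3.31, 6.99, 4.06 and 1.37 and the others by 1.27, -0.272, -0.725 and -0.0776. Member groups overlapped in 4 of the 8 classes, the narrowest and the third by width and the lowest and highest by rank. Lists on chromosomes 1 to 19 held 28818, 42853 and 31916 peaks in the EYFP and 25818, 23088 and 33548 in the cFos replicates. On lists cut to 23088 peaks each, the rank difference of members was 5.81 (exact permutation p = 0.1). Beyond this setting, the part of list length and of peak width in the result was not tested.

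Inner regions of a cluster differed more than outer ones. The 113 regions with a cluster member on both sides had median ranks of 42.2, 43.2 and 46.6 in the EYFP and 48.6, 57.2 and 52.1 in the cFos replicates, a difference of 8.60. For the 156 first or last regions it was 2.93, from 47.1, 45.3 and 49.0 to 49.97, 50.4 and 49.7. In both classes every cFos library lay above every EYFP library. The difference between the classes was not tested. Larger clusters hold a larger share of inner regions, and place was not separated from cluster size.

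By cluster, 59 of the 78 (75.6%) had the higher mean normal score in cFos. Taken singly, 63.6% of members and 49.1% of all shared regions did. The share over all stitched units was not taken. In 14 clusters (17.9%) every cFos library lay above every EYFP library, where the background over stitched units of any size is 7.01%. In 0 clusters did every cFos library lie below, where the background is 6.41%. Means over several regions vary less than single regions, and most units in the background are single regions. At 50% coverage of a region by a library's peaks, 1 of 18 clusters lay above (5.56%, against 6.52% of all units) and 1 below. Of the 21 clusters at the stricter score, above 93.14, 2 lay above (9.52%, against 6.51%) and 0 below, and of the 51 on lists of equal length 6 lay above (11.8%, against 6.87%) and 1 below. Without chromosome 13 the counts were 9 above (13.04%, against 6.87%) and 1 below. With a library left out, where 2 against 3 libraries separate more easily, 21.0 to 27.4% of clusters lay above, against 11.2 to 12.7% of all units, and 4.21 to 8.14% below, against 10.5 to 12.1%. The count above was 22, 17 and 23 without EYFP replicates 1, 2 and 3, and 26, 28 and 19 without cFos replicates 1, 2 and 3. Stitched at 25000 bp, 39 of 289 clusters lay above (13.5%, against 7.11% of all units) and 12 below (4.15%, against 6.54%). At 5000 bp, 6 of 11 lay above (54.5%, against 6.95%) and 0 below.

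**Figure D4:**
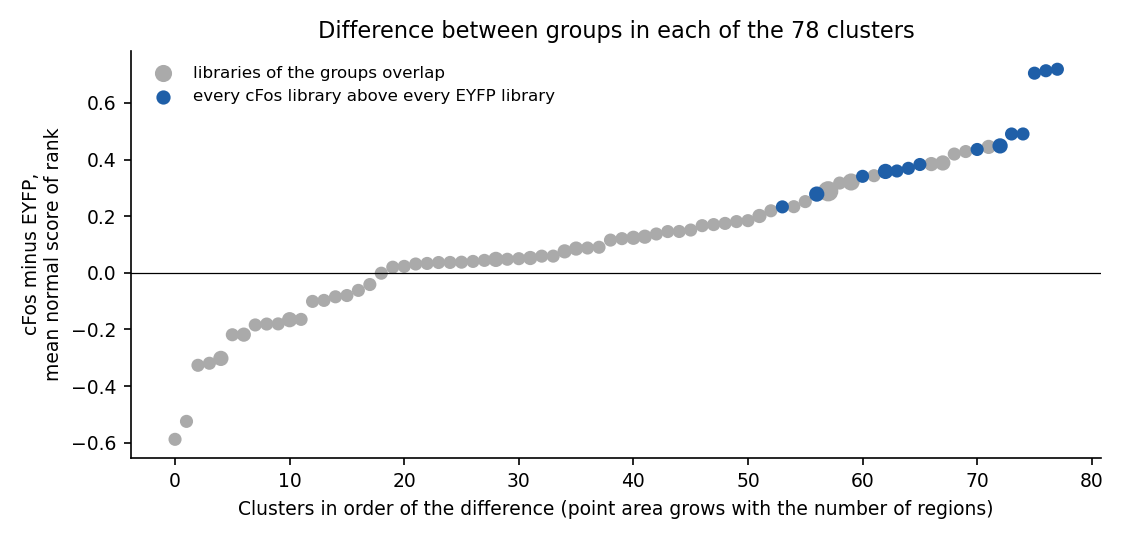
Difference between groups in the mean normal score of the rank (cFos minus EYFP, y axis) for each of the 78 clusters, in order of size of the difference. Blue points are the 14 clusters in which every cFos library lies above every EYFP library. Above 0 lie 59 points (75.6%). Taken singly, 63.6% of members and 49.1% of all shared regions have the higher mean in cFos. The share over all stitched units, the like background for cluster means, was not taken.

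The 3 largest differences among those 14 clusters were found at 2 places. None of these 3 clusters held 3 shared regions at the stricter score, on lists of equal length or at 50% coverage. On chromosome 15, a cluster of 3 from 12133743 to 12146169 had mean ranks of 44.5, 32.1 and 45.2 in the EYFP and 51.4, 65.9 and 61.4 in the cFos replicates. Its normal score was 0.289 ± 0.281 in cFos and -0.430 ± 0.292 in EYFP (SD, n = 3 each), a difference of 0.719. On chromosome 5, a pair of neighbouring clusters of 3 lay 34066 bp apart, from 14994221 to 15009308 and from 15043375 to 15062692. Both were weak, with mean percentiles of 50.9 and 53.6.

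The upstream one of this pair had mean ranks of 14.5, 3.81 and 14.2 in EYFP and 19.2, 37.0 and 27.2 in cFos replicates. The downstream one had 21.1, 4.16 and 20.2 in EYFP and 21.6, 35.9 and 24.1 in cFos replicates. EYFP replicate 2 gave the lowest value in both, and the differences in normal score were 0.705 and 0.713. Without EYFP replicate 2 they were 0.424 and 0.159, and that of the chromosome 15 cluster was 0.553. In the downstream one the nearest values of the groups, 21.1 in EYFP replicate 1 and 21.6 in cFos replicate 1, nearly met.

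Among the larger clusters, the groups were apart in 3 of the 9 with 5 or more regions (33.3%), all on chromosome 13 and higher in cFos. Over stitched units of any size the share higher in cFos was 7.01%. The cluster from 21252108 to 21273496 had mean ranks of 42.4, 38.3 and 40.4 in EYFP and 46.5, 47.0 and 43.9 in cFos replicates. That from 22120392 to 22143513 had 62.3, 58.4 and 61.6 in EYFP and 69.4, 71.1 and 69.3 in cFos replicates. That from 83854117 to 83886577 had 39.6, 36.1 and 46.1 in EYFP and 45.4, 65.5 and 52.8 in cFos replicates, where the lowest cFos mean rank lay under the highest EYFP one although the mean normal scores were apart. The clusters of 5 starting at 23515126 on chromosome 13 and at 95659392 on chromosome 3 had the lower mean in cFos, by -0.166 and -0.302 in normal score, with overlapping groups.

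Group-only regions, called in 3 of 3 libraries of 1 group and in 0 of 3 of the other, were then counted inside the clusters. None lay there, with 0 of 313 cFos-only and 0 of 1340 EYFP-only regions between the members of any cluster. The gaps of clusters make up 0.0540% of the sequence outside shared regions, so their length alone would place 0.169 cFos-only and 0.724 EYFP-only regions inside. A count of 0 of 313 allows a share of up to 0.958% and 0 of 1340 a share of up to 0.224% (3 counts of the total; the exact binomial bounds are 1.17% and 0.275%), both above the share by length. Of regions called in 3 libraries but not group-only, 8 of 5095 (0.157%) lay inside, a share that these limits also exceed. The data therefore cannot show whether clusters hold fewer or more group-only regions than other sequence. The pair gaps, 4.76 Mb, also held 0 of either kind.

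Within 50 kb of a cluster lay 2 of the 313 cFos-only and 3 of the 1340 EYFP-only regions. The number that length alone would place there was not taken, so these counts do not show whether such regions are few or many near clusters. The nearest cFos-only region, on chromosome 6 from 47689036 to 47691359, lay 28544 bp from a cluster that starts at 47719904 and scored 224.46, 174.49 and 190.93 in cFos replicates 1 to 3. The nearest EYFP-only region, on chromosome 3 from 10306623 to 10307422, lay 23021 bp from a cluster that starts at 10330444. It was weak, with scores of 51.85, 75.74 and 51.9 in EYFP replicates 1 to 3, close to the lowest score in the lists, 50.

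Regions called in some but not all libraries were about as dense inside clusters as elsewhere. Cluster gaps held 29 of the 56985 such regions (0.0509%, 95% exact binomial interval 0.0341 to 0.0731%), or 22.4 per Mb against 23.8 per Mb outside clusters. Length alone would place 30.8 there. The gaps of pairs, the most similar sequence, held 59, or 12.4 per Mb. Of the 78 clusters, 58 held none, and the cluster of 11 held the most, 5. None lay in the 11 clusters left when stitched at 5000 bp, whose gaps measured 5000 bp or less. The number that length alone would place in those gaps was not taken.

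By the number of libraries that called them, cluster gaps held 8.49 regions per Mb called in 1 or 2 libraries, against 16.9 per Mb outside clusters, and 13.9 per Mb called in 3 to 5 libraries, against 6.88 outside. As shares, 0.0272% of the former (11 of 40477, interval 0.0136 to 0.0486%) and 0.109% of the latter (18 of 16508, interval 0.0646 to 0.172%) lay inside. The intervals do not overlap, but cover counting error only and treat regions as independent. In pair gaps, 4.76 Mb against 1.30 Mb of cluster gaps, the shares were 0.0964% and 0.121%, or 8.20 and 4.20 per Mb. Calls in 1 or 2 libraries were thus about as sparse in pair gaps as in cluster gaps. Calls in 3 to 5 libraries were sparser in pair gaps than outside clusters, the opposite of cluster gaps. Of the 29 regions, 8 lay on chromosome 13.

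**Figure D5:**
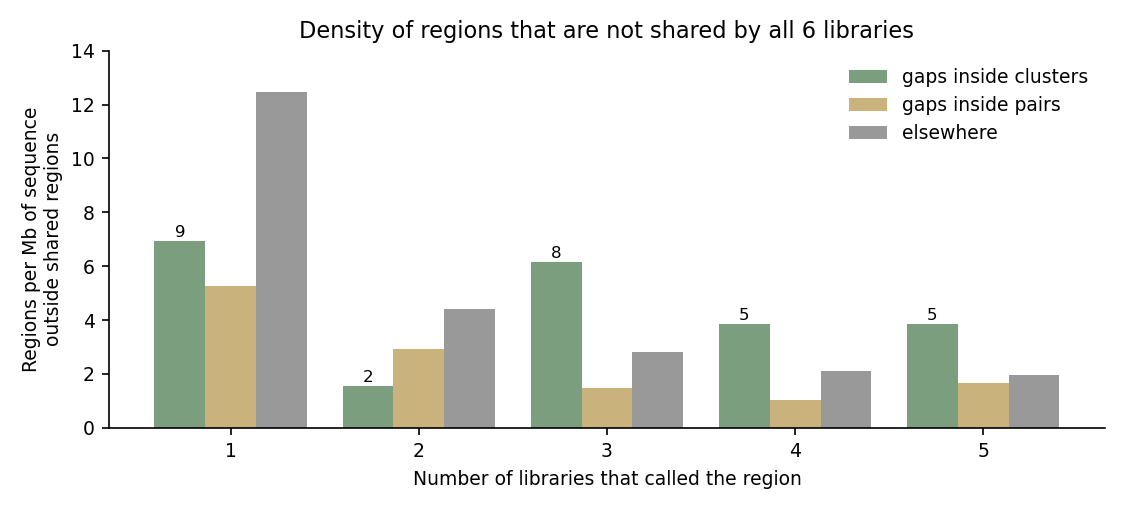
Regions per Mb of sequence outside shared regions (y axis) by the number of libraries that called them (x axis), in the gaps of clusters, in the gaps of pairs and elsewhere; numbers above the green bars count the regions inside clusters. Regions called in 1 library are sparser in cluster gaps than elsewhere, and those called in 3, 4 or 5 are denser.

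Several of these partial calls missed membership by 1 library. A cluster of 4 on chromosome 4, from 88402873 to 88428970, also held 3 regions that 5 libraries called. The one from 88405726 to 88407236 was missing in EYFP replicate 2, and those from 88422373 to 88423179 and from 88425135 to 88426016 in cFos replicate 2. The other pair called in 5 libraries lay on chromosome 13, from 23524284 to 23525285 and from 23626577 to 23627772, and was missing in EYFP replicate 1. Leaving out cFos replicate 2 raised the number of clusters to 132 and that of members to 450.

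The share of a library's partial calls that lay inside clusters did not separate the groups. It was 0.0468%, 0.0578% and 0.0745% in EYFP replicates 1 to 3 (8, 18 and 15 regions) and 0.108%, 0.0530% and 0.0933% in cFos replicates 1 to 3 (15, 6 and 20 regions). The cFos mean was 0.0848 ± 0.0285% and the EYFP mean 0.0597 ± 0.0140% (SD over 3 libraries), with an exact permutation p of 0.3, and 0.3 after adjustment. The difference lay within the spread between replicates.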

How the data were processed

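ATAC-seq peak lists of 3 EYFP and 3 cFos libraries were used, grouped by sample title. The submitters' processing notes name Bowtie2 and the mm9 build. Each list holds a score per peak as deposited by the authors, from 50 to 3100; the sources used here give neither its meaning nor the caller's settings, nor say how duplicates, multi-mapping reads or the Tn5 shift were handled. Read depth is unknown, so a missing peak is a missing call. The number of animals limits the precision.

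Coordinates are mm9, 1-based. Without a genome of that build, genes, motifs, sequence content and sequences, which had been planned, are not analysed here. Merging and stitching gave the same 68364 regions and 78 clusters as bedtools 2.31.1. A library calls a region with any overlapping peak. Group means were compared by two-sided exact permutation of 3 against 3 libraries, members with other shared regions by an exact sign-flip over 6 libraries, and ranks (as normal scores) by limma 3.58.1 over all shared regions. Tested on simulated data, limma recovered 110 of 200 planted shifts of 1.5 in normal score among 11379 regions with 1 false call. Every simulated region had the same noise, whereas real regions differ in it, so this recovery does not measure the power in the real data.

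Clusters were named by a rule: the 10 with most regions (ties by longer span), the 5 longest, the 5 densest with 5 or more regions, those with most group-only regions (there were none), the 3 largest group differences each way among clusters whose groups do not overlap (none were lower in cFos), and the extreme chromosomes. Other clusters and regions described singly were chosen after seeing values, and not all are marked so where they appear. Members, lists and rules were chosen with earlier results of these data known.

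Alternatives were a stricter score (above 93.14, the pooled median), equal lists of 23088 peaks, merging across 200 bp, 50% coverage, stitching at 5000 or 25000 bp, at least 5 regions, each library left out, the replicate block and, for limma, percentile ranks. Leaving out chromosome 13, the group test of member ranks, the width test against other shared regions, the separate cluster values without each library, and the classes by gap, width, rank and place were chosen after seeing the data. Deviations of libraries with the same number were unrelated (correlations of -0.0344, -0.0308 and 0.0342 for numbers 1 to 3), so numbers were not treated as pairs. Python 3.11.15, numpy 2.4.6, pandas 2.3.3, scipy 1.17.1, matplotlib 3.10.9 and R 4.3.3 were used.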

Additional observations from a re-analysis of the deposited data

Results flagged for a closer look

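Chromosome X lies outside the rule, which takes chromosomes 1 to 19, and drew attention because the same steps find clusters there. Its 458 shared regions formed 5 clusters, each of 3 regions, with 15 regions in all, and 29 pairs.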

How the results depend on the processing

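How many clusters exist depends on how peaks are called and stitched, which follows from the rule. There were 21 clusters with 77 members at the stricter score, 51 with 176 on equal-length lists, 18 with 64 at 50% coverage, 11 with 37 when stitched at 5000 bp, 289 with 1032 at 25000 bp and 9 with 53 at a minimum of 5 regions. Leaving out each library gave 81 to 132 clusters and 279 to 450 members, because a region then needs 5 calls. Stitching at 25000 bp placed 1 of 313 cFos-only and 8 of 1340 EYFP-only regions inside clusters, beside 286 of all 56985 regions that were not shared. Leaving out a library placed 0 to 1 group-only region of either kind inside. The score percentile of members minus other shared regions changed sign to 1.17 at the stricter score, 1.96 on equal-length lists, 1.23 at 50% coverage, 3.45 at 5000 bp and 2.13 at a minimum of 5 regions, was -1.36 at 25000 bp (exact sign-flip p = 0.0312), and ran from -2.24 to -0.798 with each library left out; the cause was not tested. The width excess of members ran from 86.0 to 137 bp with each library left out, where the smallest exact p is 0.0625, and was 280 bp at 50% coverage and 414 bp at a minimum of 5 regions. The rank difference kept its direction under all 14 alternatives run for it, from 2.67 at 25000 bp to 13.4 at 5000 bp, and the member width difference under 15. limma called 0 members under all 16, the replicate block included; with numbers as a replicate block the exact p of the share inside clusters was 0.5 and that of member width 0.25. At 5000 bp cluster gaps held no partial call, so the share inside clusters was 0% in every library and its difference 0 (exact p = 1).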
